A study of Mus musculus with 8 samples.

Results

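The genes of 10 ionotropic glutamate receptor subunits were followed through the ovaries of juvenile mice: the kainate receptor genes *Grik1*, *Grik2*, *Grik3*, *Grik4* and *Grik5*, the AMPA receptor genes *Gria1*, *Gria2* and *Gria3*, and the NMDA receptor genes *Grin1* and *Grin2a*. They are 10 of the 45583 gene symbols in the count table and were taken by symbol. *Grik3* was selected on its measured difference between WT and GOAT KO in these same libraries, and the others were added as relatives of it, so the difference between the groups is given for the list as a description and is not tested. Whole ovaries of 4 WT and 4 GOAT KO mice were sequenced, 1 library per mouse. All mice were female, 3 weeks old and on the C57/Bl6 background, and both genotypes were bred as littermates from heterozygous parents. GOAT, ghrelin-O-acyltransferase, attaches the acyl group to the hormone ghrelin and is encoded by *Mboat4*. The deletion was present in every tissue and throughout life. Reads on genes summed to between 16147216 and 19481798 per library. In RNA of a whole organ, fewer cells of one type and less RNA per cell cannot be told apart.

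Ionotropic glutamate receptors are cation channels that glutamate opens, each built from several subunits. AMPA receptors carry most fast excitatory transmission in the brain, NMDA receptors need a co-agonist and always contain the *Grin1* subunit, and kainate receptors modulate transmission on both sides of the synapse. Among the kainate subunits, the products of *Grik1*, *Grik2* and *Grik3* can form channels by themselves, while those of *Grik4* and *Grik5* bind glutamate with high affinity and need a partner from the first set. The family is known mainly from neurons, and glutamate receptor subunits have also been described in endocrine tissues.

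The gene deleted in GOAT KO mice was barely read in any library. *Mboat4* had 1, 1, 1 and 3 reads in the libraries labelled WT 1118, 1119, 1120 and 1121, and 5, 7, 7 and 8 reads in those labelled GOAT KO 1139, 1140, 1141 and 1146. The few reads were more in the libraries labelled GOAT KO, and counts this low are a weak check of the labels in either direction. The groups are named as labelled, and the study's separate PCR measurements are not used here. The study left 1 library of each group out of its own comparison because of its place on a scaling plot and did not name them in its text. WT 1120 and GOAT KO 1139 are taken here to be these libraries, and results are given with all 8 libraries and with the other 6. The summed level of 4 adipose markers was 577 CPM (read counts scaled to library size with TMM factors) in GOAT KO 1139 and between 14.4 and 35.0 CPM in the other 7 libraries. Markers of the ovary were present throughout, with the 13 oocyte markers summing to between 1264 and 1540 CPM and the 9 granulosa cell markers to between 4862 and 6287 CPM. The 13 neuron markers summed to between 39.4 and 47.5 CPM in the libraries labelled WT and between 39.2 and 42.9 CPM in those labelled GOAT KO. The 8 Schwann cell and glia markers summed to between 69.3 and 86.5 CPM and between 65.6 and 104 CPM. The sums of theca, smooth muscle, endothelial, oviduct and surface epithelium markers overlapped between the groups too. The median log2 fold change of the 5 tested theca and steroidogenic cell markers was 0.28, and 0.29 with the 6 libraries. Of the marker lists only the 5 leukocyte markers separated the groups in their sum, and they are described with these values seen. They summed to between 74.0 and 92.7 CPM in the libraries labelled WT and between 50.6 and 72.1 CPM in those labelled GOAT KO. All 5 had negative log2 fold changes (median -0.36), and *Lyz2*, the lysozyme of myeloid cells, was called lower with all 8 libraries and with the 6 by the limits given with the receptor genes. By the same limits the neuron marker *Prph* (log2 fold change 1.07), the oocyte marker *Sohlh1* (0.87) and the granulosa cell marker *Inhba* (0.95) were called higher with all 8 libraries and with the 6. *Fshr* (0.68) and *Cyp19a1* (1.39), also of granulosa cells, were called higher with the 6 only. All 4 adipose markers were called higher with all 8 libraries (median log2 fold change 3.87). With the 6 libraries 1 of them was, *Plin1*, which coats fat droplets (0.78). The median log2 fold change of the 9 granulosa cell markers was 0.14, and 0.26 with the 6 libraries. The part of these differences in the results below was not tested.

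*Grik3* encodes the GluK3 subunit of kainate receptors. The gene lies on chromosome 4 from 125490700 to 125714173, + strand (GRCm38), with 1 annotated transcript of 16 exons. Its level was 73.2, 68.5, 56.0 and 59.4 CPM in the libraries labelled WT 1118, 1119, 1120 and 1121. In the libraries labelled GOAT KO it was 66.4 CPM in 1139, 238 CPM in 1140, 216 CPM in 1141 and 217 CPM in 1146. The other 3 libraries labelled GOAT KO thus stood well above all WT libraries and close to each other, while 1139 lay inside the WT range, so that the groups overlapped. The means were 64.2 ± 7.94 CPM (SD, n = 4) and 184 ± 79.3 CPM (SD, n = 4). The fitted log2 fold change of GOAT KO over WT was 1.52 (SE 0.31) with all 8 libraries and 1.74 (SE 0.082) with the 6. Without GOAT KO 1139 alone it was 1.80, and with each of the other libraries left out it stayed between 1.38 and 1.59.

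The pair of libraries taken to be outside the published choice of *Grik3* gave a different picture. GOAT KO 1139, at 66.4 CPM, was 1.19 times WT 1120, at 56.0 CPM. With 1 library on each side this has no replicate check. *Grik5*, measured in the same library, was 69.9 CPM in GOAT KO 1139 and 68.2 to 70.5 CPM in the other libraries labelled GOAT KO, and the TMM factor of GOAT KO 1139 was 0.999. The high adipose markers of GOAT KO 1139 went together with its low *Grik3*, and their part in it was not tested.

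**Figure D1:**
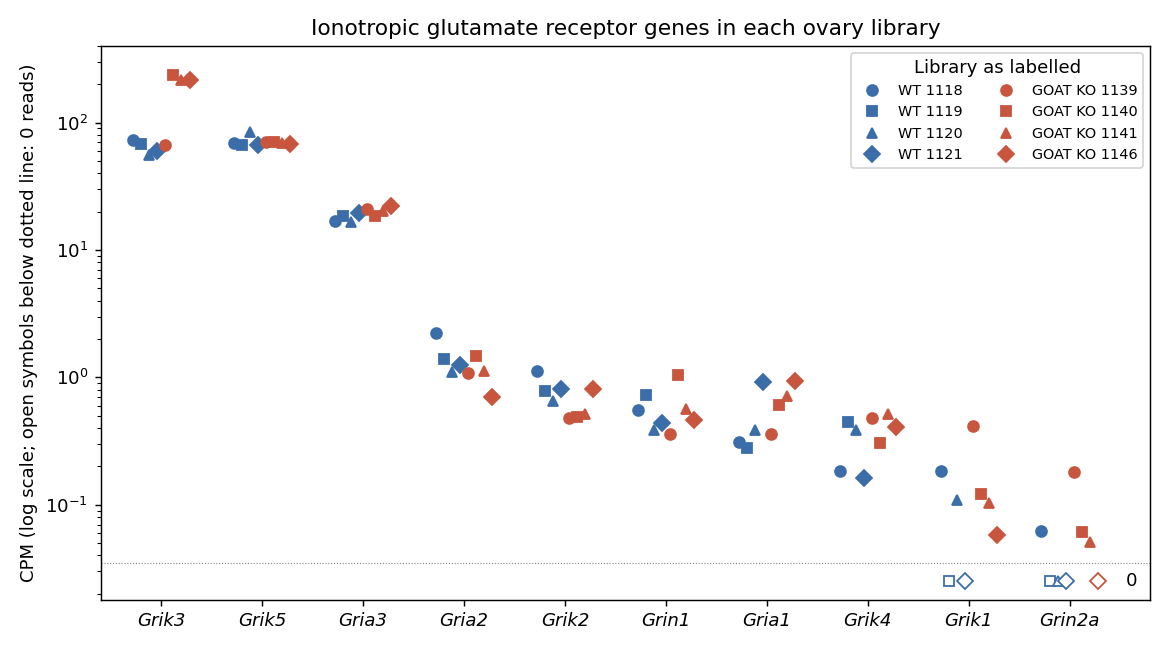
CPM (vertical, log scale) of the 10 receptor genes in each of the 8 libraries, blue for those labelled WT and red for those labelled GOAT KO, with open symbols for 0 reads. *Grik3* stood at 216 to 238 CPM in 3 libraries labelled GOAT KO and at 56.0 to 73.2 CPM in the other 5 libraries, while *Grik5* and *Gria3* were nearly level across all 8.

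Reads across splice junctions gave a second measure of *Grik3* message from the same libraries. The authors' junction lists held 14 of the 15 annotated introns of *Grik3* in at least 1 library, with 868 reads in all. Only the junctions of exons 5 to 6 and of exons 7 to 8 were listed in every library. A junction that is absent from a list need not have had 0 reads, since the lists hold only the junctions that the aligner found in that library. Both junctions join coding sequence, and they are shown because they carry the read evidence that can be compared across all libraries. The last 20 bases of the first exon are in lower case and the first 20 of the next exon in capitals (GENCODE M21 transcript, + strand).
Exon 5 (chr4:125641578-125641597) to exon 6 (chr4:125649679-125649698): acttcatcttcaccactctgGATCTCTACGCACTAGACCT
Exon 7 (chr4:125650572-125650591) to exon 8 (chr4:125656288-125656307): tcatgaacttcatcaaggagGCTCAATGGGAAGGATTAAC

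Across the exon 5 to 6 junction the WT libraries, in the order used above, had 10, 9, 5 and 11 reads. Those labelled GOAT KO had 6, 25, 14 and 32. Across the exon 7 to 8 junction there were 10, 4, 4 and 7 reads, and then 10, 19, 22 and 22. In both, GOAT KO 1139 lay within the WT range and the other 3 libraries labelled GOAT KO lay above all WT libraries. Summed over both junctions and scaled to library size, the mean of the libraries labelled GOAT KO was 2.51 times that of the WT libraries, and 2.61 times with the 6 libraries. Over all junctions listed inside the gene on its strand the ratio was 3.84, and 4.17 with the 6 libraries. An unlisted junction adds nothing to these totals, which rest on between 5 and 11 annotated introns in the WT libraries, on 7 in GOAT KO 1139, and on 12 to 13 in the other libraries labelled GOAT KO. The transcripts that the authors assembled covered 72.5% to 93.7% of the coding bases of *Grik3* in the WT libraries, 81.2% in GOAT KO 1139 and 95.6% to 99.8% in the other 3, from 3 to 9 assembled transcripts that overlapped the gene in a library.

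**Figure D2:**
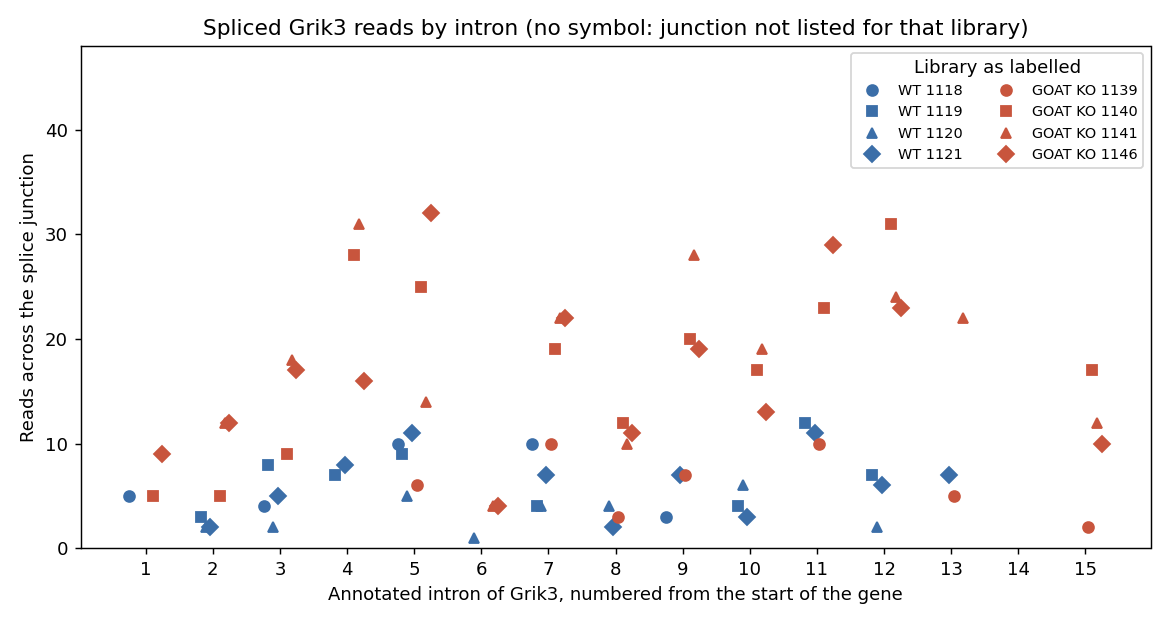
Reads across each annotated intron of *Grik3* (vertical), numbered along the gene (horizontal), for each library, with no symbol where the library's list lacks the junction. GOAT KO 1140, 1141 and 1146 (red squares, triangles and diamonds) reached up to 32 reads, and no WT library exceeded 12.

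The 250 bases before the RefSeq start of *Grik3* are shown beside those of *Grik5*, as the promoters of the most abundant subunit genes, of which the first was high in 3 libraries and the second nearly level (GRCm38.p6, both 5′ to 3′ in the direction of the gene). Capitals mark GC boxes, the letters GGGCGG on either strand.
*Grik3* (chr4:125490446-125490695, + strand): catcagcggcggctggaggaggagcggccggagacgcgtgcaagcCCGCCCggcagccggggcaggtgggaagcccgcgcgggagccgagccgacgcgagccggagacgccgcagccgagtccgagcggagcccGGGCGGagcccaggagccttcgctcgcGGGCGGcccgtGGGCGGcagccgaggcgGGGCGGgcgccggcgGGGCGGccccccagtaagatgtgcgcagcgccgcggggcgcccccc
*Grik5* (chr7:25072370-25072619, − strand): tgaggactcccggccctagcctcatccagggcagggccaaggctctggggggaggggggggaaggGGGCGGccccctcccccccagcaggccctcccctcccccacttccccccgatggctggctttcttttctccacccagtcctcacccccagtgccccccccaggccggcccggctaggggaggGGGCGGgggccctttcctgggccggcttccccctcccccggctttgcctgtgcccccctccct
The *Grik3* window held 6 GC boxes and the *Grik5* window 2, and 32.7% of the 32851 RefSeq windows of this length hold at least 1. On either strand, neither window held the letters CCAAT of the CCAAT box, which 33.8% of all windows hold. The same was true of the TATA box, spelled TATAAA, held by 12.4% of windows, and of the cAMP response element, spelled TGACGTCA, held by 1.55%. G and C made up 82.0% of the *Grik3* window and 75.2% of the *Grik5* window, against 53.2% over all windows. A window was given for 6 of the 10 genes. In the others (*Grik2*, *Grik4*, *Gria2* and *Grin1*), *Grik4* held 1 GC box.

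*Grik5*, which encodes the high-affinity subunit GluK5 (chromosome 7 from 25009849 to 25072346, − strand), was the steadiest of the abundant genes. Its level was 69.3, 66.5, 84.8 and 67.3 CPM in WT 1118, 1119, 1120 and 1121, and 69.9, 70.5, 68.9 and 68.2 CPM in GOAT KO 1139, 1140, 1141 and 1146. WT 1120 was the highest and the other 7 libraries lay between 66.5 and 70.5 CPM. The log2 fold change was -0.053 (SE 0.080) with all 8 libraries and 0.031 (SE 0.059) with the 6. The gene had 2203 spliced reads over 19 of 23 annotated introns.

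The other kainate subunit genes were close to the detection limit. *Grik2*, which encodes GluK2, had 18, 14, 12 and 15 reads in the WT libraries and 8, 8, 10 and 14 in those labelled GOAT KO. None of its 99 reads was listed across a splice junction, although 27 introns are annotated. *Grik4*, the second high-affinity subunit, had 3 to 8 reads per WT library and 5 to 10 per library labelled GOAT KO. *Grik1*, which encodes GluK1, had 3, 0, 2 and 0 reads and then 7, 2, 2 and 1. A count of 0 allows up to 3 reads, which is 0.167 CPM in WT 1119 and 0.164 CPM in WT 1121, counting error alone. *Grik3* therefore supplied between 98.6% and 99.8% of the summed level per kb of exon of *Grik1*, *Grik2* and *Grik3* in every library.

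Of the AMPA receptor genes, *Gria3* (chromosome X from 41400854 to 41678601, + strand), which encodes GluA3, was the only member well above the detection limit. It measured 17.0, 18.4, 16.5 and 19.7 CPM in WT 1118, 1119, 1120 and 1121, and 20.8, 18.6, 20.1 and 22.3 CPM in GOAT KO 1139, 1140, 1141 and 1146. The groups overlapped, with means of 17.9 ± 1.45 CPM (SD, n = 4) and 20.4 ± 1.53 CPM (SD, n = 4). The log2 fold change was 0.19 (SE 0.089), and 0.14 (SE 0.100) with the 6 libraries. *Gria3* made up 89.5% to 94.3% of the summed level per kb of *Gria1*, *Gria2* and *Gria3*.

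*Gria2* encodes GluA2, the subunit that keeps calcium out of AMPA receptors when its message is edited. It had 36, 25, 20 and 23 reads in the WT libraries and 18, 24, 22 and 12 in those labelled GOAT KO. The groups overlapped, and the log2 fold change was -0.44 (SE 0.29). *Gria1*, which encodes GluA1, had 5, 5, 7 and 17 reads and then 6, 10, 14 and 16, with a log2 fold change of 0.45 (SE 0.43). WT 1121 held the most *Gria1* reads of all 8 libraries, and without it the log2 fold change was 1.00, which the rule for calls given below then called. Few of these reads were spliced. There were 5 spliced reads for 180 counts of *Gria2* and 2 for 80 counts of *Gria1*, against 15.5 to 16.6 junction reads per 100 gene counts over all genes of a library. Per 100 counts, *Grik5* had 22.2 spliced reads, *Gria3* 7.09 and *Grik3* 4.96.

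The NMDA receptor genes were barely read. *Grin1*, the subunit that every NMDA receptor needs (chromosome 2 from 25291181 to 25319187, − strand), had 9, 13, 7 and 8 reads in the WT libraries and 6, 17, 11 and 8 in those labelled GOAT KO. An antisense gene, *Grin1os*, overlaps it, and since the use of strand in counting is not given, reads of the pair cannot be told apart. *Grin2a*, which encodes GluN2A, had 1, 0, 0 and 0 reads and then 3, 1, 1 and 0. *Grin2c*, another NMDA subunit gene that is not one of the 10 and was singled out after its values were seen, was far higher. It measured 12.7, 16.7, 43.5 and 17.2 CPM in WT 1118, 1119, 1120 and 1121, and 41.8, 13.9, 15.2 and 23.5 CPM in GOAT KO 1139, 1140, 1141 and 1146. Its highest libraries were WT 1120 and GOAT KO 1139, which also had the most reads of the aromatase gene *Cyp19a1*, a product of granulosa cells of large follicles, at 65.0 and 45.2 CPM against 5.06 to 31.6 CPM elsewhere. *Cyp19a1* was picked from the 9 granulosa cell markers after its values were seen. The sum of the 9 was highest in GOAT KO 1141, at 6287 CPM, while WT 1120 had 6168 CPM and GOAT KO 1139 had 6078 CPM of it. The log2 fold change of *Grin2c* was 0.063 (SE 0.42), and 0.17 (SE 0.19) with the 6 libraries.

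Levels can be ordered between genes only per length. Divided by the length of all annotated exons, *Grik5* led in the WT libraries with 13.9 ± 1.67 CPM per kb (SD, n = 4), followed by *Grik3* with 7.16 ± 0.885 CPM per kb (SD, n = 4) and *Gria3* with 1.82 ± 0.147 CPM per kb (SD, n = 4). In the same libraries *Gria2* averaged 0.0960, *Gria1* 0.0785, *Grik2* 0.0636, *Grin1* 0.0541, *Grik4* 0.0494, *Grik1* 0.0110 and *Grin2a* 0.000864 CPM per kb. The ratio of *Grik3* to *Grik5* was 0.380 to 0.608 in the WT libraries and 0.546 in GOAT KO 1139, and 1.81 to 1.94 in GOAT KO 1140, 1141 and 1146. The kainate subunit genes thus changed places in the last 3. *Grik3*, *Grik5* and *Gria3* made up at least 98.3% of the summed level per kb of the 10 genes in every library.

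Neighbours in the order of mean levels over all 8 libraries were compared within libraries. The same libraries set the order, and so the pairs and their direction, which the p-values do not allow for. *Grik3* had rank 1 in this order and rank 2 in the WT libraries alone. *Grik5* was above *Gria3* in 8 of 8 libraries by 11.7 ± 1.25 CPM per kb (SD of the difference, n = 8), and *Gria3* was above *Gria1* in 8 of 8 by 1.85 ± 0.171 CPM per kb. Both differences had an adjusted p of 0.0352 (two-sided exact permutation test by sign flips over n = 8 libraries, Benjamini-Hochberg over 9 pairs, raw p = 0.00781, the smallest that 8 libraries allow). The pair of *Grik3* and *Grik5*, counted in the adjustment, is given as a description, since *Grik3* was selected on these libraries: *Grik5* was above in all 4 WT libraries and in GOAT KO 1139, and *Grik3* in the other 3. *Gria1*, *Gria2*, *Grik4*, *Grin1* and *Grik2* followed without a difference between neighbours beyond their spread (adjusted p between 0.366 and 0.945 from the same exact test). *Grik2* stood above *Grik1* in 7 of 8 libraries and *Grik1* above *Grin2a* in 6 of 8, each with an adjusted p of 0.0703 from the exact test.

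**Figure D3:**
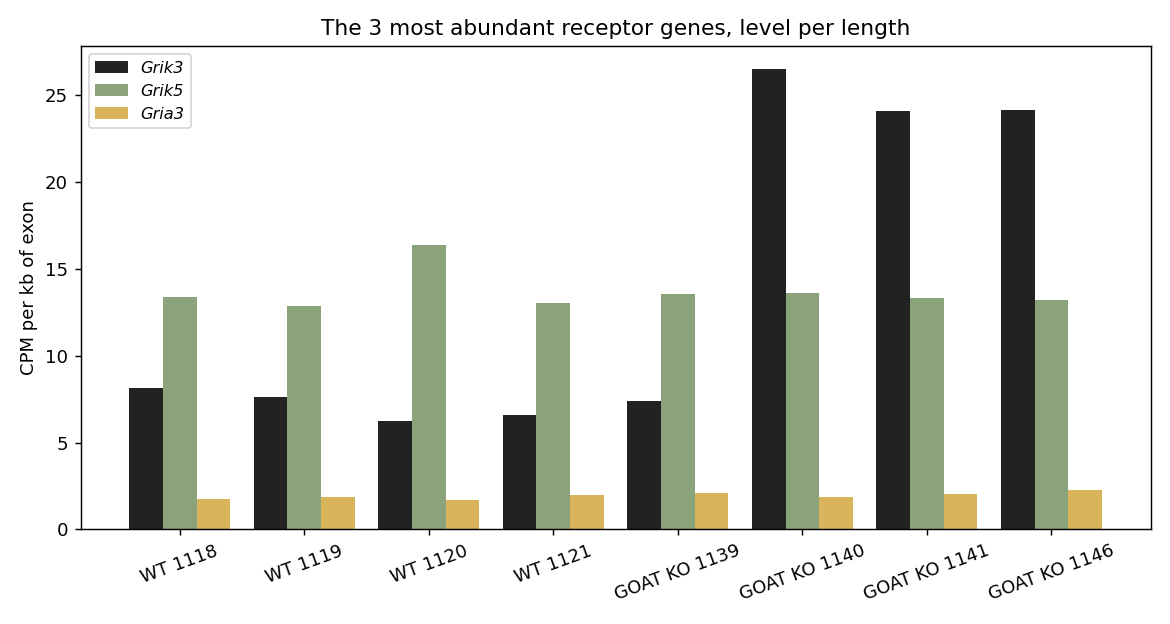
CPM per kb of annotated exon (vertical, from 0) of *Grik3*, *Grik5* and *Gria3* in each library (horizontal). *Grik3* was 24.1 to 26.5 in GOAT KO 1140, 1141 and 1146 and below *Grik5* in the other 5 libraries.

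Of the 10 genes, 6 passed the filter on low counts (*Grik2*, *Grik3*, *Grik5*, *Gria1*, *Gria2* and *Gria3*), and *Grik1*, *Grik4*, *Grin1* and *Grin2a* did not. The filter asks for 0.566 CPM in 4 libraries. *Grik2* met it in all WT libraries (0.659 to 1.12 CPM) but only in GOAT KO 1146 of its group (0.814 CPM). *Gria1* met it in GOAT KO 1140, 1141 and 1146 (0.611 to 0.930 CPM) but only in WT 1121 of its group (0.927 CPM). Both thus passed mainly through the group where they were higher, and the counts and median below include them. Genes were called at a p below 0.05 and a change of more than 0.5 in either direction on the log2 scale. These are the study's limits, and p was taken here before adjustment, from the quasi-likelihood test of edgeR over all genes. By them, 1 of the 6 was called, *Grik3*, higher in the libraries labelled GOAT KO. The same limits called 1.67% of the 16601 genes tested, 0.958% in that direction, and 0.0241% had an adjusted p below 0.05, none of the 6 among them. With the 6 libraries *Grik3* was again the one called, where 2.39% of 16641 genes were, 1.32% in that direction. With the 6 libraries it was also among the 0.12% of genes with an adjusted p below 0.05. Since *Grik3* was chosen for this contrast, nothing is read from that count. The median log2 fold change of the 6 genes was 0.068, beside -0.00035 over all genes tested. In CPM the groups overlapped for all 10 genes with all 8 libraries, as they did for all but 2.92% of genes tested. With the 6 libraries *Grik3* alone did not overlap, which was also the case for 15.8% of genes tested.

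**Figure D4:**
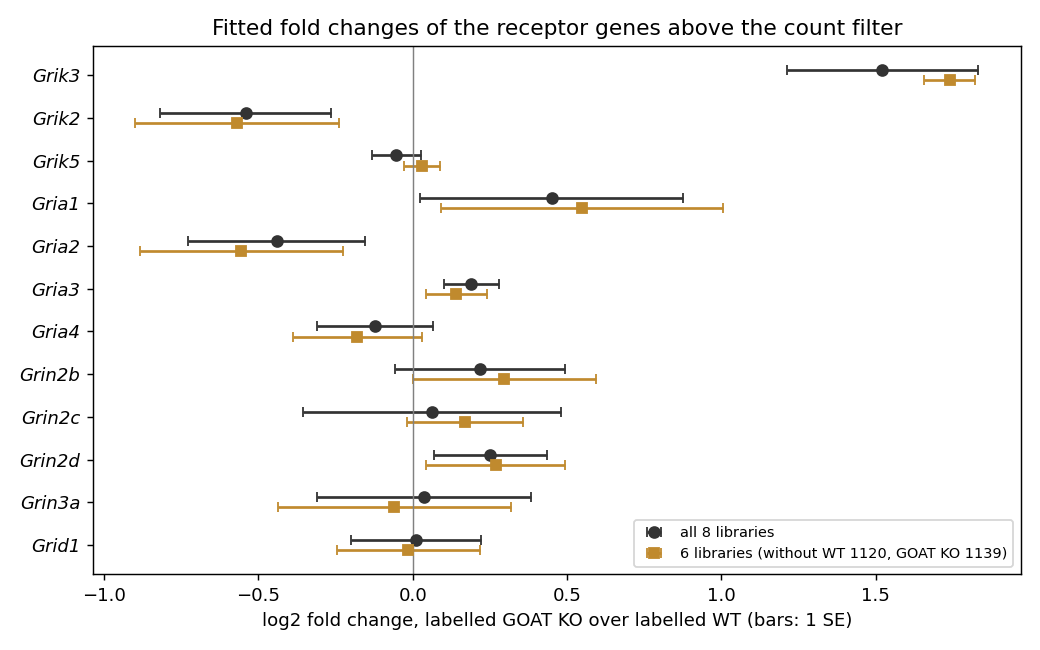
Log2 fold change of GOAT KO over WT (horizontal, bars 1 SE) for the 12 ionotropic receptor genes above the filter, with all 8 libraries (circles) and with 6 (squares). *Grik3* lies at 1.52 and 1.74 and every other gene between -0.57 and 0.55.

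The remaining genes of glutamate signalling were taken from lists. Of 79 such genes 58 were tested and 1 was called, which is 1.72% beside 1.67% of all genes. That gene was *Gls2*, a glutaminase that makes glutamate from glutamine, with 21, 27, 29 and 21 reads in the WT libraries and 41, 31, 33 and 39 reads in those labelled GOAT KO. All libraries labelled GOAT KO lay above all WT libraries for *Gls2*, and 2.92% of all genes tested had no overlap in either direction. The difference was 0.58 on the log2 scale (SE 0.20), with an adjusted p of 0.983 in the edgeR fit over all genes, and *Gls2* was not called without WT 1121 or without GOAT KO 1139. None of the other 6 tested ionotropic subunit genes was called (median log2 fold change 0.050), and none of 8 auxiliary subunit genes (median -0.13), 24 scaffold and trafficking genes (median -0.0076), 4 metabotropic receptor genes (median -0.28), 5 transporter genes (median 0.14) or 3 editing enzyme genes (median -0.16). With the 6 libraries *Gls2* was again the 1 gene called.

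Position along the chromosome was not used in choosing the genes. Among the tested genes closest to *Grik3* were *Gnl2*, *Dnali1*, *Meaf6* and *Zc3h12a* before it and *2610028E06Rik*, *Mrps15*, *Oscp1*, *Rpl28-ps3* and *Lsm10* after it, from 174 kb to 435 kb away. None of these was called. Their log2 fold changes lay between -0.13 and 0.09 except that *Zc3h12a*, which encodes an RNA-degrading enzyme, had -0.48 (SE 0.19), with an adjusted p of 0.983 in the edgeR fit. Within 1 Mb of *Grik3*, edgeR called 0 of 39 tested genes with all 8 libraries and 0 of 39 with the 6. The same limits called 1.67% and 2.39% of all genes tested. In either fit 3 of the 39 had an unadjusted edgeR p below 0.05. Over all genes, 767 of 16601 with all 8 libraries and 1574 of 16641 with the 6 did.

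Within 5 Mb of *Grik3* the count was larger. With all 8 libraries 6 of 127 tested genes were called, 3 of them higher and 3 lower with the GOAT KO label, which is 4.72% beside 1.67% of all genes. With the 6 libraries 12 of 128 were called, 5 higher and 7 lower, which is 9.38% beside 2.39%. No test of this share was made. The called gene with the largest log2 fold change, named after its values were seen, was *Spocd1*, 4215 kb from *Grik3*, with 2.73, 1.72, 2.09 and 1.47 CPM in the WT libraries, 3.05 CPM in GOAT KO 1139 and 6.17, 5.84 and 7.38 CPM in GOAT KO 1140, 1141 and 1146. *Dcdc2b*, 3894 kb away and also named after its values were seen, had 5.33 to 6.54 CPM in the WT libraries, 5.50 CPM in GOAT KO 1139 and 2.82 to 3.06 CPM in the other 3. For these, and for *Cited4* and *1700086P04Rik*, GOAT KO 1139 was the library labelled GOAT KO nearest to the WT mean, as for *Grik3*. For the other called genes, *Fndc5* and *D130007C19Rik*, it was GOAT KO 1146, at 51.8 CPM of *Fndc5* beside 41.3 to 55.1 CPM in the WT libraries and 70.4 CPM in GOAT KO 1139.

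**Figure D5:**
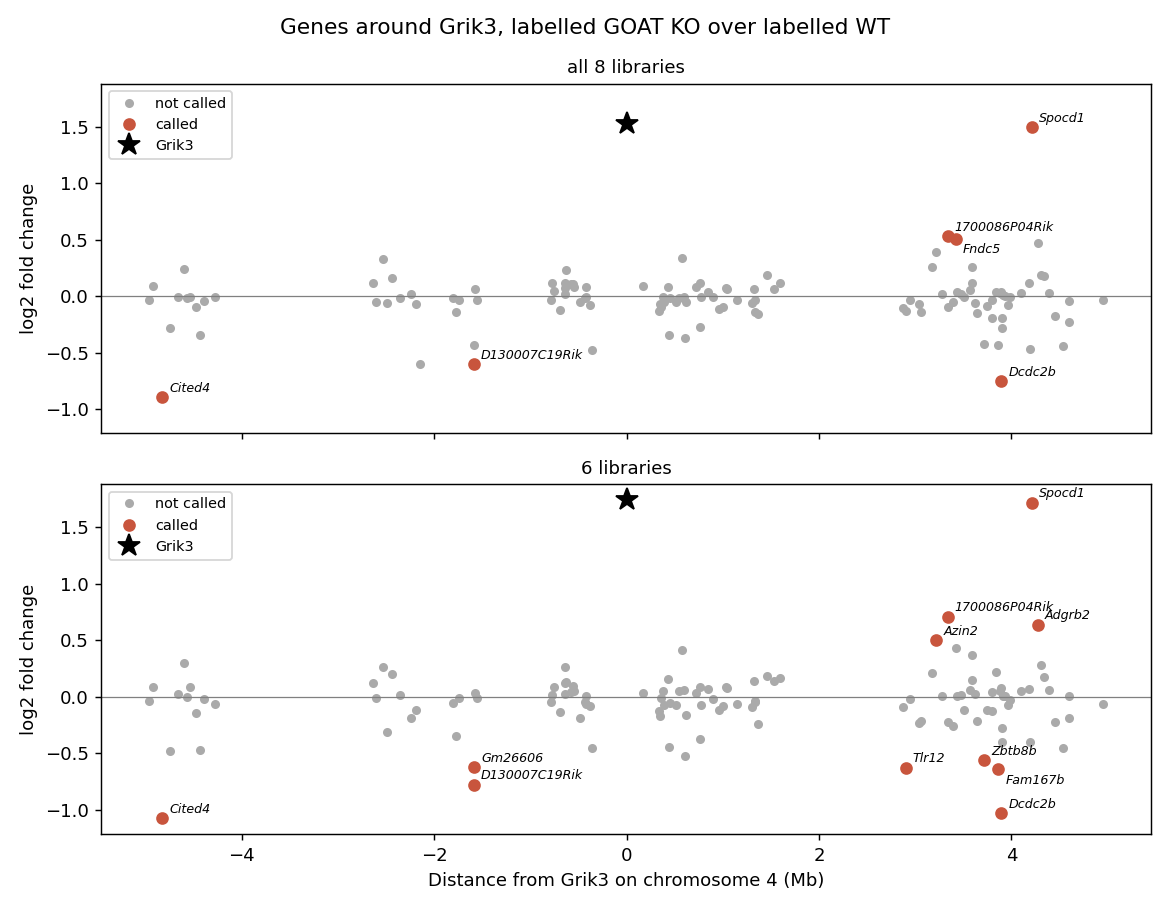
Log2 fold change of GOAT KO over WT (vertical) of the 127 genes within 5 Mb of *Grik3* that were tested with all 8 libraries, by distance from *Grik3* in Mb (horizontal), fitted with all 8 libraries (upper panel) and with 6 (lower panel). Called genes, in red, lie more than 1 Mb from *Grik3* (star). *Gm12901*, tested with the 6 libraries only, is not drawn, and *Bmp8a*, tested with all 8 only, is missing from the lower panel.

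The genes whose libraries deviated most like *Grik3* around their group means (Pearson r over 8 libraries, in log2 CPM) were *Sfmbt2* (r = 0.987), *Tbc1d17* (r = 0.982), *Cc2d1b* (r = 0.976), *Osbpl7* (r = 0.976) and *Gm17690* (r = 0.974). All 5 were lowest in GOAT KO 1139 among the libraries labelled GOAT KO, with *Sfmbt2* at 4.07 CPM there and at 5.52 to 5.74 CPM in the other 3. None had a mean difference between the groups like that of *Grik3*, their log2 fold changes lying between -0.10 and 0.02. Among the receptor genes, r with *Grik3* was 0.42 for *Gria1*, 0.38 for *Grik2*, 0.14 for *Gria2* and -0.17 for both *Grik5* and *Gria3*. These values rest on 8 points, of which GOAT KO 1139 was the farthest for *Grik3*, and are descriptions.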

How the data were processed

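The authors sequenced total RNA of whole ovaries as single reads of 50 bases, aligned them with TopHat2 2.0.14 and assembled transcripts with StringTie 1.0.4 (submitters' processing notes). The deposited table holds raw counts per gene symbol. The tool that counted and its use of strand are not given in the sources used here. The deposited junction lists hold read numbers in the score column of a BED file, taken as the authors wrote them. Each library is a separate mouse, and libraries of a group differed by more than sampling noise (chi-square per gene 3.96 to 25.0 between pairs).

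Counts were fitted over all genes with edgeR 4.0.16 (quasi-likelihood test, TMM scaling, group as the only term, R 4.3.3) after filterByExpr (at least 0.566 CPM in 4 libraries). A gene was called where p before adjustment was below 0.05 and the log2 fold change lay beyond 0.5 in either direction, and adjusted values are Benjamini-Hochberg. The SE of a fold change was derived from the test, as its absolute log2 value divided by the square root of the F statistic. Of 45583 symbols 41852 had 1 position in GENCODE M21, which gave exon lengths and introns. Promoters are RefSeq's. Alternatives were RLE scaling, no filter, DESeq2 1.42.0, limma 3.58.1 (voom), the 6 libraries and leaving out each library. The genes followed, the gene lists and these rules were chosen with earlier results of these data known. Named genes are the 10 subunit genes, *Mboat4*, list genes that were called and the 5 tested genes next to *Grik3* on either side. The 5 genes most like *Grik3* are also named. Others are said to be named after their values were seen, and so were the called genes within 5 Mb of *Grik3*. Some results under this rule are not reported here. Counting intervals and floors cover counting error only. Of these steps, the edgeR fit was checked on simulated counts, with all 8 libraries and with the 6.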

Additional observations from a re-analysis of the deposited data

Results flagged for a closer look

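Within each group of 4 libraries, the highest or lowest library was set against the other 3 with Dixon's criterion for 28 genes, which gave 56 groups. In 11 of them 1 library stood apart. Chance gives about 1 in 20 for a continuous measure that was not chosen on these values, so this tally cannot be set against that rate: *Grin2a* and *Mboat4* had 0 to 3 reads per WT library, and 4 of the 11 belong to genes picked for deviating like *Grik3*. *Grik3* was 66.4 CPM in GOAT KO 1139 and 216 to 238 CPM in the other libraries labelled GOAT KO. *Grik5* was 84.8 CPM in WT 1120 and 66.5 to 69.3 CPM in the other WT libraries. *Grik2* was 0.814 CPM in GOAT KO 1146 and 0.479 to 0.512 CPM in the others of its group. *Gria1* was 0.927 CPM in WT 1121 and 0.278 to 0.384 CPM in the other WT libraries. *Grin2a* was 0.0619 CPM in WT 1118, which is 1 read, and 0 in the other WT libraries. *Grin2c* was 43.5 CPM in WT 1120 and 12.7 to 17.2 CPM in the other WT libraries. *Mboat4* was 0.164 CPM in WT 1121 and 0.0549 to 0.0619 CPM in the other WT libraries.

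The others are genes picked for deviating like *Grik3*, so a library that stands apart was built into their choice. In GOAT KO 1139, *Sfmbt2* was 4.07 CPM, *Tbc1d17* 58.3 CPM and *Osbpl7* 19.1 CPM, each below the other 3 libraries of its group. *Gm17690* was 5.87 CPM in WT 1120 and higher, at up to 6.01 CPM, in the other WT libraries.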

How the results depend on the processing

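The log2 fold change of *Grik3* stayed between 1.37 and 1.80 under every alternative run, and *Grik3* was called in each. Over all genes 278 were called, with 691 without a filter on low counts and 231 to 437 when 1 library was left out (437 without WT 1120). At an adjusted p under 0.05 there were 4 genes, 13 with DESeq2, 7 without the filter and 20 with the 6 libraries, and 3 to 14 when 1 library was left out (14 without GOAT KO 1139). Among the 10 subunit genes 1 to 2 were called when 1 library was left out, *Gria1* joining without WT 1121 (log2 fold change 1.00) and *Grik2* without GOAT KO 1146 (-0.75). Among the other glutamate genes 0 to 2 were called, with 0 without WT 1121. The count was 2 without WT 1118, 1119 or 1120 and without GOAT KO 1141 or 1146. Of the genes within 5 Mb of *Grik3* 6 were called, 12 with the 6 libraries and 5 to 13 when 1 library was left out (13 without GOAT KO 1139). Within 1 Mb 0 were called, and 1 with voom and without WT 1120 or 1121 or GOAT KO 1139, 1140 or 1141. The junction read ratio of *Grik3* was 3.84, and 3.35 to 4.79 when 1 library was left out. It was 2.51 over junctions listed in every library, an alternative chosen after seeing the data. In the order of levels 2 pairs of neighbours differed, and 0 in the WT libraries only, where 4 libraries cannot go below p = 0.125 in the exact test. The cause of the other changes was not tested. No paired analysis was possible because the labels do not give the litter of each mouse. Depth limits *Grik1*, *Grik2*, *Grik4*, *Gria1*, *Gria2*, *Grin1* and *Grin2a*, which had 36 reads or fewer in every library.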

Other observations

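Genes of glutamate signalling that were not called also had levels well above the detection limit. *Neto2*, an auxiliary subunit of kainate receptors, named after its values were seen, measured 57.1, 57.8, 33.5 and 52.8 CPM in WT 1118, 1119, 1120 and 1121, and 33.3, 60.3, 44.1 and 44.0 CPM in GOAT KO 1139, 1140, 1141 and 1146. It was lowest in WT 1120 and GOAT KO 1139, and its log2 fold change was -0.15 (SE 0.19). *Grm7*, a metabotropic receptor gene also named after its values were seen, measured 7.87, 6.67, 7.74 and 9.98 CPM in the WT libraries and 5.68, 5.44, 5.63 and 6.62 CPM in those labelled GOAT KO. All libraries labelled GOAT KO lay below all WT libraries, which 2.92% of tested genes did in either direction. Its log2 fold change of -0.46 (SE 0.14) was under the size needed for a call with all 8 libraries. It was called without WT 1119 (-0.55) and without GOAT KO 1146 (-0.53).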
